A study of Mus musculus with 4 samples.

Results

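The genes of 10 neutrophil granule proteins were described across TdTomato-positive and TdTomato-negative cells sorted from the mouse femoral periosteum, as 10 of the 47643 genes in the table. They were chosen by name and grouped by the stage at which a developing neutrophil is known to make them. The rule used no measured values, but earlier results of these data were known when it was made. The primary, or azurophil, granule gave Mpo, Elane, Prtn3 and Ctsg. The secondary, or specific, granule gave Ltf, Camp, Ngp and Lcn2. The late group, packed last into specific and gelatinase granules, was Mmp8 and Mmp9.

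Both groups came from the same mice, double heterozygous for a Sox9CreErt2 driver and a Td-Tomato reporter at the ROSA26 locus, so the TdTomato-negative cells carried the same alleles and had the same tamoxifen. Cre acts in this cross in cells that express Sox9 when tamoxifen is present, and their descendants keep the red label. The mice had 3 tamoxifen injections of 100 µL at 20 mg/mL, 48 h apart, and unbroken femora were collected 2 weeks later; neither age nor sex is given in the sources used here. Liberase-digested diaphyses gave about 10000 cells of each kind from 18 femora of 9 mice, pooled in 2 collections, and each collection gave 1 TdTomato-positive and 1 TdTomato-negative library (n = 2 each). The p-values therefore rest on pooled libraries and do not measure the spread between mice.

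The libraries, told apart by depth, held 32.0 and 41.6 M reads in the TdTomato-positive group and 17.0 and 74.0 M reads in the TdTomato-negative group. Levels are reads per kilobase of genomic span and per M reads (RPKM), solved for each library from the authors' group means, highest value and log difference. Where whole reads did not show which of a group's values belonged to which library, both readings are given. Sox9, the gene that carries the Cre driver, had 16.4 and 4.51 RPKM in TdTomato-positive libraries, against 3.32 and 0.0244 RPKM in TdTomato-negative libraries. The 12 skeletal markers, with periosteal and osteoblast genes such as Postn and Bglap among them, all averaged higher in TdTomato-positive cells (median log2 fold 4.70). Past the FDR were Col2a1, the cartilage collagen (log2 fold 8.80, FDR = 4.28e-05), and Bglap (log2 fold 7.55, FDR = 0.0198), both in the authors' deposited table. Col1a1 and Bglap2 had log2 folds of 5.33 and 6.98. The summed level of the 12 was 1421 to 5314 and 1848 to 6917 RPKM in TdTomato-positive libraries, against 230 to 527 and 1.84 to 1295 RPKM in TdTomato-negative libraries. The 12 neutrophil markers had reads in every library, and all 12 averaged lower in TdTomato-positive cells (median log2 fold -2.18). The summed level of these 12, as a range over the readings in each library, was 2730 to 8046 and 3912 to 10832 RPKM in TdTomato-positive libraries, against 4731 to 8275 and 19500 to 34951 RPKM in TdTomato-negative libraries, and none was at 0. In these sorted bulk samples, fewer neutrophils and less RNA per neutrophil cannot be told apart.

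Neutrophils are made in the bone marrow through the promyelocyte, myelocyte, metamyelocyte, band and segmented stages. Each stage transcribes its own granule genes and then largely stops, so that primary granule transcripts mark promyelocytes, secondary granule transcripts mark myelocytes and metamyelocytes, and gelatinase transcripts come latest. Mature blood neutrophils carry the proteins of the early granules but little of their messenger RNA. The transcription factors C/EBP epsilon, C/EBP alpha and PU.1, an ETS family factor, are known to act at these promoters.

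RefSeq promoters (GRCm38.p6, 250 bases before to 50 after the start) were found for 9 members; Mmp9 had no entry. The promoter of 1 member with settled library values is shown for each stage, because the stages are known to differ in the factors that drive them. The capitals mark the ETS letters GAGGAA, the C/EBP letters TTGCNNAA, the Runx letters TGTGGT and the TATA letters TATAAA, each searched on both strands. The Elane window is chr10:79886062-79886361 on the plus strand, the Ngp window chr9:110419558-110419857 on the plus strand and the Mmp8 window chr9:7558179-7558478 on the plus strand.
Elane promoter: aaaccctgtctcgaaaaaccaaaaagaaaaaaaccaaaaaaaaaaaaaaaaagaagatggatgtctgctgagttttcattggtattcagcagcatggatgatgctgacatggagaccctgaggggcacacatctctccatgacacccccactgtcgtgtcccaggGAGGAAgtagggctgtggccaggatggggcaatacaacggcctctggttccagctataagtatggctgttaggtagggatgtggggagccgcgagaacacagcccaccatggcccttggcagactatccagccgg
Ngp promoter: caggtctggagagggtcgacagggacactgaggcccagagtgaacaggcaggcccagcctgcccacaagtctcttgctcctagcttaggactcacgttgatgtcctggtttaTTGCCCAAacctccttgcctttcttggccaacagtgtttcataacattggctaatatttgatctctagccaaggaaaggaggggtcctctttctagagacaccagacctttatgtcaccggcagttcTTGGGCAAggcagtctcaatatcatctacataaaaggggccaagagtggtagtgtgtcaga
Mmp8 promoter: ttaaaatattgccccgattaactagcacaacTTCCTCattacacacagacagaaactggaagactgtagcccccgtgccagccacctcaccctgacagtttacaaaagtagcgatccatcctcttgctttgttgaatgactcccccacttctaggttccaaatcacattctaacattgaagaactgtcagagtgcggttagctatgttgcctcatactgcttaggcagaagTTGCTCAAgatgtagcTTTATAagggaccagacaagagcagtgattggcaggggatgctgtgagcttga
The ETS letters stood in 7 of the 9 windows, among them all 4 primary ones, against 28.3% of 32851 RefSeq promoters. The C/EBP letters stood in 4 of the 9, which were 3 secondary members (Ltf, Ngp and Lcn2) and Mmp8, against 10.8% of all promoters. Runx letters stood in 2 windows, those of Ctsg and Ltf (16.8% of all promoters), and TATA letters in 2, those of Ctsg and Mmp8 (13.6%). No match overlapped another, and a match describes the letters only.

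The primary granule genes differed little on average between the groups, apart from Mpo. For Elane, Ctsg and Prtn3, 1 TdTomato-positive library was very high and the other very low. The TdTomato-positive libraries lay far apart for Mpo too, under either reading. Elane encodes neutrophil elastase, a serine protease (ENSMUSG00000020125.6, GRCm38 chr10:79886312-79888216, plus strand). It had 2820 and 62237 reads, or 46.3 and 785 RPKM, in TdTomato-positive libraries of 32.0 and 41.6 M reads, against 4514 and 45132 reads, or 140 and 320 RPKM, in TdTomato-negative libraries of 17.0 and 74.0 M reads. The TdTomato-positive libraries were thus the lowest and the highest of the 4. The log2 fold, from mean logs of RPKM + 0.1, was -0.15 (deposited p = 0.903 in the authors' deposited table).

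Ctsg encodes cathepsin G, a second serine protease of the azurophil granule (chr14:56099881-56102574, minus strand). It had 5.83 and 66.7 RPKM (502 and 7479 reads) in TdTomato-positive libraries, against 14.8 and 34.0 RPKM (678 and 6777 reads) in TdTomato-negative libraries. The pattern was that of Elane, with the TdTomato-positive libraries at both ends, and the log2 fold was -0.18 (p = 0.882 in the authors' deposited table). There were 5.62 and 8.32 reads of Elane per read of Ctsg in TdTomato-positive libraries, and 6.66 and 6.66 in TdTomato-negative libraries, so the pair moved nearly in step from library to library.

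Prtn3 encodes proteinase 3, which lies 3.14 kb from Elane (chr10:79874476-79883174, plus strand). It had 3.47 and 55.2 RPKM in TdTomato-positive libraries, against either 12.8 and 21.3 or 4.80 and 56.2 RPKM in TdTomato-negative libraries, with a log2 fold of -0.24 (p = 0.847 in the authors' deposited table). The groups overlapped under both readings. Plppr3, on the opposite strand, overlaps Prtn3, and no source used here says whether the counting used strand, so their reads may be shared.

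Mpo encodes myeloperoxidase, which makes hypochlorous acid (chr11:87793581-87804413, plus strand). It had either 146 and 15.9 or 12.2 and 190 RPKM in TdTomato-positive libraries, against either 61.7 and 181 or 41.4 and 269 RPKM in TdTomato-negative libraries. The log2 fold was -1.13, the lowest of the 4 primary members (p = 0.430 in the authors' deposited table), and the groups overlapped under every reading. The antisense gene Gm11505 overlaps Mpo, with the same limit on strand.

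The direction of the primary genes turned with single libraries. Without the TdTomato-positive library of 32.0 M reads, limma (a linear model on log2(RPKM + 1)) gave log2 folds of 1.89 for Elane, 1.68 for Prtn3 and 1.53 for Ctsg, and without the TdTomato-positive library of 41.6 M reads it gave -2.17 for Elane. Without the TdTomato-negative library of 74.0 M reads the log2 folds were 0.46 for Elane, 0.20 for Prtn3 and 0.44 for Ctsg. For Mpo the log2 fold was -2.66 without the TdTomato-positive library of 32.0 M reads and 0.46 without that of 41.6 M reads. Here Mpo was read as higher in the TdTomato-positive library of 32.0 M reads, the reverse of Elane, Ctsg and Prtn3. Under the other reading the log2 fold of Mpo was 0.83 and -3.03 without these libraries. It was 0.24 under that reading without the TdTomato-negative library of 74.0 M reads. Group means of the deposited signal times the span weight shallow libraries more. On that scale the ratio of TdTomato-positive to TdTomato-negative cells was 1.62 for Elane, 1.37 for Prtn3, 1.34 for Ctsg and 0.813 for Mpo. No direction is therefore given for the 4 primary members.

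The secondary granule genes had lower mean log levels in TdTomato-positive cells, though none passed a test, and Ngp and Camp were the most abundant members per exon length in both groups. Ngp encodes neutrophilic granule protein, a cystatin-like protein (chr9:110419747-110423012, plus strand). It had 470 and 1972 RPKM (49088 and 267933 reads) in TdTomato-positive libraries, against 1698 and 4770 RPKM (94111 and 1152815 reads) in TdTomato-negative libraries. The higher TdTomato-positive library lay just above the lower TdTomato-negative one, and the log2 fold was -1.56 (p = 0.313 in the authors' deposited table).

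Camp encodes cathelicidin, the precursor of an antimicrobial peptide (chr9:109847379-109849617, minus strand). It had 244 and 1722 RPKM in TdTomato-positive libraries, against 746 and 1234 RPKM in TdTomato-negative libraries. As for Elane, the TdTomato-positive libraries were the lowest and the highest. The log2 fold was -0.56 (p = 0.701 in the authors' deposited table), and it was 0.84 in limma without the TdTomato-positive library of 32.0 M reads.

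Ltf encodes lactoferrin, an iron-binding protein (chr9:111019271-111042767, plus strand). It had either 81.9 and 41.4 or 31.8 and 107 RPKM in TdTomato-positive libraries, against either 116 and 378 or 86.6 and 504 RPKM in TdTomato-negative libraries. The log2 fold was -1.84, the lowest of the 4 secondary members (p = 0.203 in the authors' deposited table). Under the pairing of 31.8 with 107 and 86.6 with 504 the groups overlapped, and under the other readings they did not.

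Lcn2 encodes lipocalin 2, which binds bacterial siderophores (chr2:32384633-32388252, minus strand). It had either 280 and 182 or 140 and 365 RPKM in TdTomato-positive libraries, against 392 and 973 RPKM in TdTomato-negative libraries. Both TdTomato-negative libraries lay above both TdTomato-positive ones under either reading, and the log2 fold was -1.45 (p = 0.334 in the authors' deposited table). Macrophages, osteoblasts and other cells can also make Lcn2 messenger RNA; the monocyte and macrophage markers had a median log2 fold of 0.24 and the skeletal markers one of 4.70, and the part of these cells in the Lcn2 level was not tested.

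**Figure D1:**
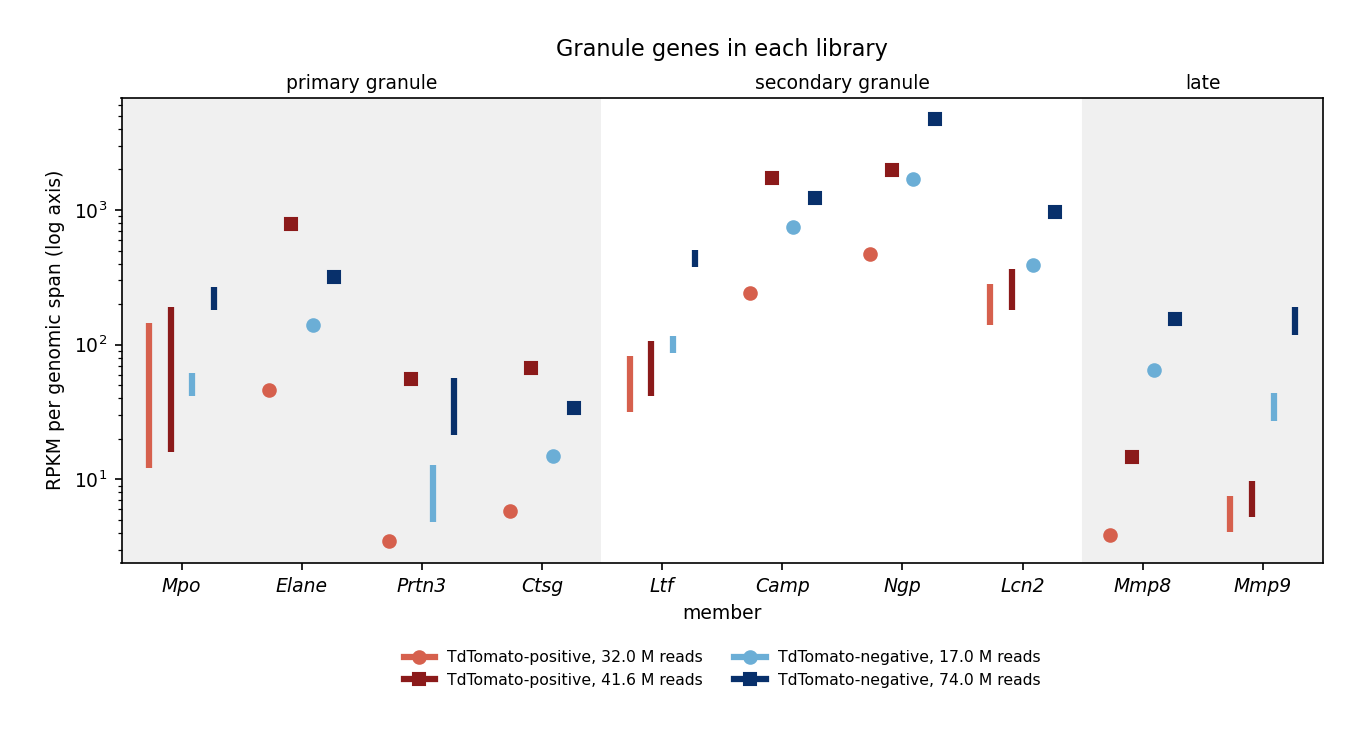
RPKM per genomic span of the 10 members in each of the 4 libraries on a log axis, red for TdTomato-positive and blue for TdTomato-negative libraries. Points are values settled by whole reads and bars run between the alternative readings of the others. TdTomato-positive libraries lie at both ends for Elane and Ctsg, and below both TdTomato-negative libraries for Lcn2, Mmp8 and Mmp9.

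The late genes were lower in TdTomato-positive cells by the widest margin of the 10 members. Mmp8 encodes neutrophil collagenase (ENSMUSG00000005800.2, chr9:7558429-7568486, plus strand). It had 3.86 and 14.8 RPKM (1241 and 6184 reads) in TdTomato-positive libraries, against 65.4 and 154 RPKM (11164 and 114653 reads) in TdTomato-negative libraries. The groups did not overlap, and the log2 fold of -3.71 is a 13.1-fold lower geometric mean (p = 0.0108, FDR = 1.00 in the authors' deposited table). The limma log2 fold was -3.53 with an SE of 0.77 (adjusted p = 0.446, limma with Benjamini-Hochberg adjustment). Each collection gave a library to both groups, but which depths belong together is not known. With a replicate block that pairs the libraries of 32.0 and 17.0 M reads the adjusted p of Mmp8 in limma was 0.047, in a fit that called 1.38% of 3268 settled genes lower, and with the other pairing it was 0.961, with 0.00% called lower.

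Mmp9 encodes gelatinase B (ENSMUSG00000017737.2, chr2:164940780-164955850, plus strand). It had either 7.49 and 5.30 or 4.05 and 9.78 RPKM in TdTomato-positive libraries, against either 43.9 and 118 or 27.0 and 192 RPKM in TdTomato-negative libraries. The groups did not overlap under any reading, and the log2 fold of -3.49 is an 11.3-fold lower geometric mean (p = 0.0154, FDR = 1.00 in the authors' deposited table). The limma log2 fold was -3.32 with an SE of 0.60 (adjusted p = 0.446, limma with Benjamini-Hochberg adjustment). This SE holds for the reading whose libraries differ less. The unadjusted p of Mmp9 in limma was 0.00287 under that reading and 0.0700 under the other. Without each library in turn the limma log2 folds stayed between -4.38 and -2.68 for Mmp8 and between -4.71 and -1.92 for Mmp9, both readings included. Mmp9 had an adjusted p of 0.0273 in limma without the TdTomato-negative library of 17.0 M reads under the other reading, where 1.21% of 7100 genes were called lower.

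Osteoclasts are a known second source of Mmp9 in bone. Of 10 osteoclast markers with reads, 6 averaged lower and 4 higher in TdTomato-positive cells (median log2 fold -0.08). Their summed level was 38.0 to 42.7 and 42.7 to 48.8 RPKM in TdTomato-positive libraries, against 23.1 to 26.6 and 61.2 to 76.6 RPKM in TdTomato-negative libraries, and Calcr and Dcstamp were each at 0 in 1 library. Acp5 and Car2 had log2 folds of 1.63 and -1.79. Car2 made up most of the summed level in TdTomato-negative libraries, with either 16.6 and 57.4 or 13.1 and 72.7 RPKM. It had 3.10 and 25.1 RPKM in TdTomato-positive libraries. Ctsk, the osteoclast collagenase, had 28.7 and 9.54 RPKM in TdTomato-positive libraries, against 5.72 and 0.152 RPKM in TdTomato-negative libraries. The part of osteoclasts in the Mmp9 level was not tested.

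None of the 10 members passed a false discovery rate (FDR) of 0.05 in the authors' deposited table, in which 0.00% of all genes were called lower and 0.00630% higher in TdTomato-positive cells. Mmp8 and Mmp9 were the 2 of 10 with an unadjusted deposited p under 0.05 and a lower level, against 0.296% of all genes and 1.54% of the 1235 genes that averaged at least 10 RPKM. In limma none passed an adjusted p of 0.05 either, where 0.00% of 6853 genes were called lower; 2 members had an unadjusted p under 0.05, against 4.30% of genes called lower that way. These fits took the reading whose libraries differ less. Under the other reading 0.521% of 7100 genes were called lower that way, and the unadjusted p in limma was 0.0454 for Mmp8 and 0.0700 for Mmp9 (adjusted p = 1.00 for both). Both TdTomato-negative libraries lay above both TdTomato-positive ones for 3 of the 10 members (Lcn2, Mmp8 and Mmp9), against 9.91% of the 6853 genes of at least 1 RPKM in 2 libraries and 5.26% of genes that averaged at least 10 RPKM. For any single value in 2 against 2 libraries, the smallest two-sided exact permutation p is 0.333.

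By stage, the median log2 fold was -0.21 for the 4 primary, -1.51 for the 4 secondary and -3.60 for the 2 late members. Over all 26433 genes with reads it was 0.01, with 47.9% of them lower in TdTomato-positive cells, and over genes that averaged at least 10 RPKM it was 0.53. The ranges of the stages did overlap, since Mpo at -1.13 lay below Camp at -0.56. The late members, at -3.71 and -3.49, lay below every primary and secondary member. The late median rests on these 2 genes. A list of 10 other genes linked to the late granules, not all of them granule proteins, is described below. Its median was -1.28, above that of the secondary members. No test of the difference between stages was made, as the members of a stage share their libraries.

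**Figure D2:**
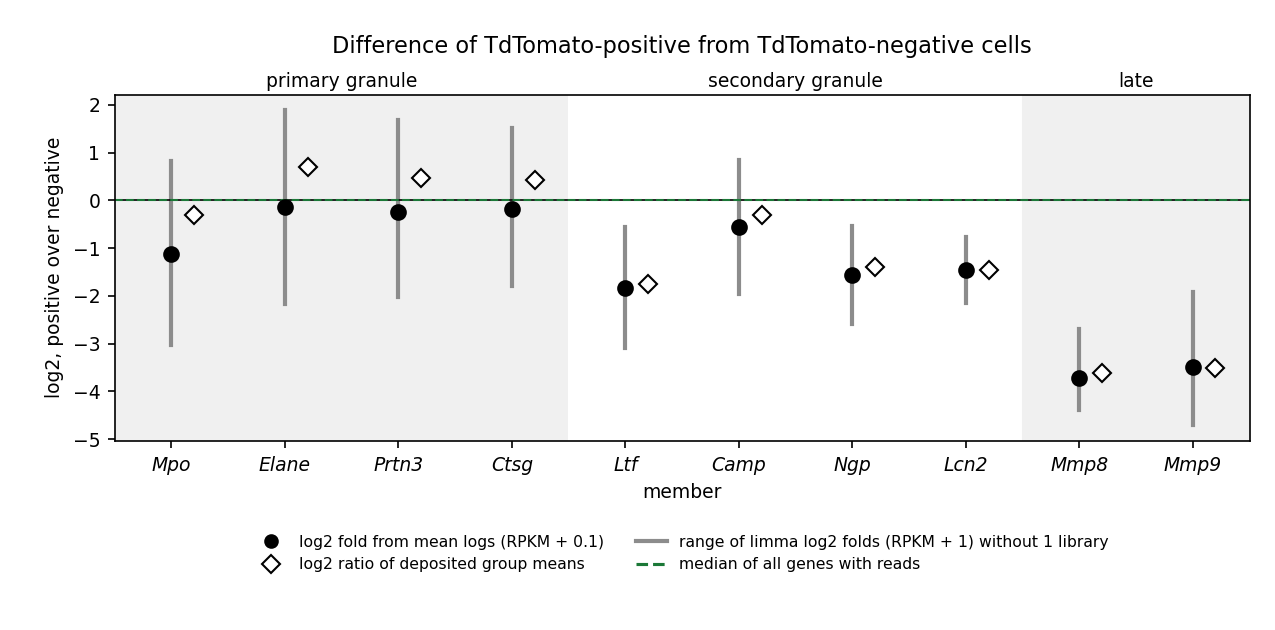
Log2 differences of TdTomato-positive from TdTomato-negative cells for each member: circles from mean logs of RPKM + 0.1, diamonds from the deposited group means, grey bars the range of limma log2 folds when 1 library at a time is left out, and the dashed line the median of all genes with reads. The bars of the primary members and Camp cross 0, and those of Ltf, Ngp, Lcn2 and the late members stay below it.

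The same stages were set against S100a8 and S100a9, cytosolic proteins that neutrophils make from the myelocyte stage onward, within each library. The ratio of Elane to these genes had a mean log2 of -3.65 in TdTomato-positive libraries and -4.65 in TdTomato-negative libraries, a difference of 1.00. The ratio of Mmp8 had a mean log2 of -8.31 in TdTomato-positive libraries and -5.73 in TdTomato-negative libraries, a difference of -2.58. That of Mmp9 differed by -2.36, and both late ratios were lower in both TdTomato-positive libraries than in either TdTomato-negative library under every reading. This held for 0.487% of genes that averaged at least 10 RPKM (1.18% of those with at least 10 reads in 2 libraries), and for none of the primary or secondary members. Relative to Ly6g and Csf3r the late ratios differed by -1.20 for Mmp8 and -0.99 for Mmp9, and relative to Itgb2 and Ptprc by -1.49 and -1.28, and with both of these pairs the groups overlapped under at least 1 reading.

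The differences of the other ratios to S100a8 and S100a9 were 0.90 for Prtn3, 0.96 for Ctsg, 0.01 for Mpo, 0.59 for Camp, -0.30 for Lcn2, -0.41 for Ngp and -0.69 for Ltf. The order of the stage medians, 0.93 for primary, -0.36 for secondary and -2.47 for late members, is the same whatever gene stands below the line, since each gene shifts all members alike. The sign of the secondary median is not: it was 1.02 relative to Ly6g and Csf3r and 0.73 relative to Itgb2 and Ptprc.

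**Figure D3:**
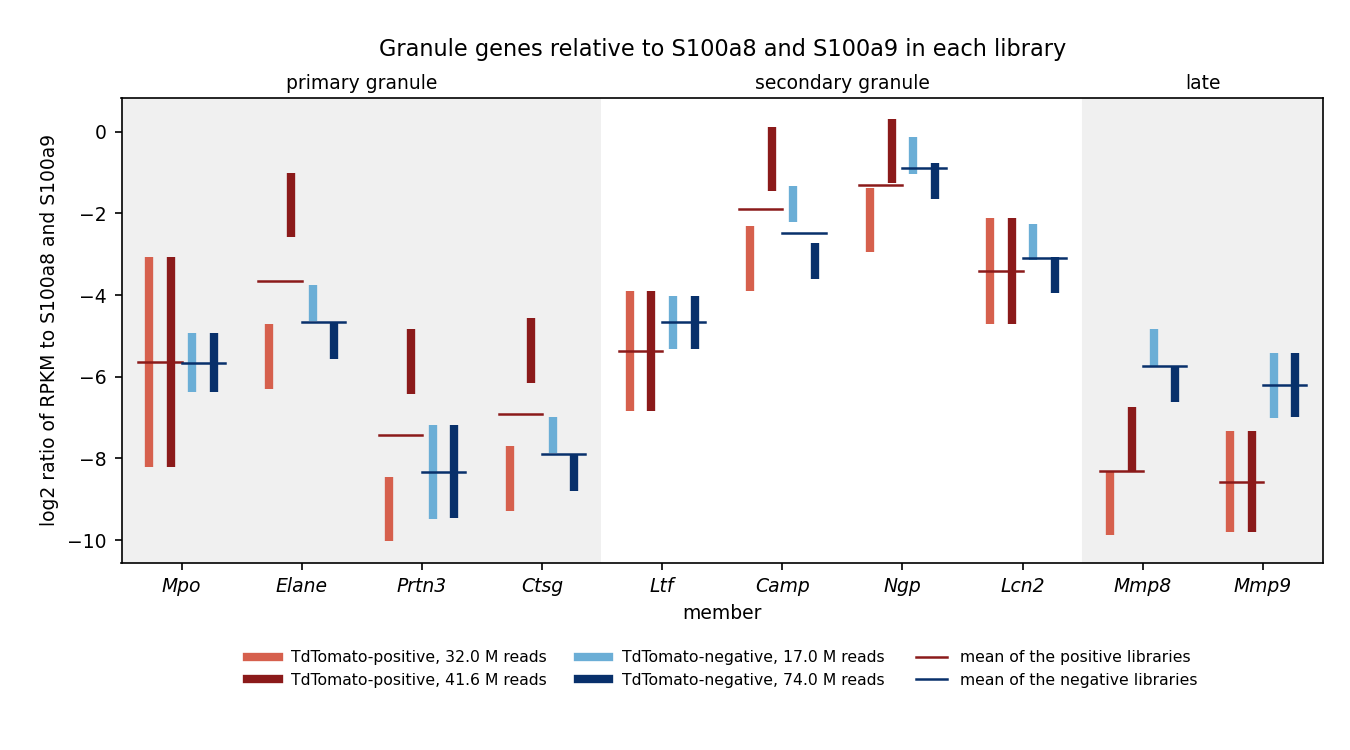
Log2 ratio of each member's RPKM to the mean log level of S100a8 and S100a9 in each library. Bars cover the readings of values that whole reads did not settle, and thin lines mark the group means. For Mmp8 and Mmp9 the TdTomato-positive bars lie wholly below the TdTomato-negative ones, with mean differences of -2.58 and -2.36.

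Reads of earlier members were also set against reads of Mmp8 in the same library. There were 2.27 and 10.1 reads of Elane per read of Mmp8 in TdTomato-positive libraries, against 0.404 and 0.394 in TdTomato-negative libraries. Camp gave 14.1 and 25.9 reads per read of Mmp8 in TdTomato-positive libraries, against 2.54 and 1.78 in TdTomato-negative libraries. Ngp gave 39.6 and 43.3 in TdTomato-positive libraries, against 8.43 and 10.1 in TdTomato-negative libraries. A higher ratio to Mmp8 in both TdTomato-positive libraries was common to 92.8% of genes that averaged at least 10 RPKM, so these ratios describe the low Mmp8 as much as the other members; Mmp8 was chosen for them after its values were seen.

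The TdTomato-positive libraries differed from each other more in early than in late transcripts. The library of 41.6 M reads stood above that of 32.0 M reads by 17.0 times for Elane, 11.4 times for Ctsg, 7.06 times for Camp, 4.19 times for Ngp and 3.83 times for Mmp8. The TdTomato-negative library of 74.0 M reads stood above that of 17.0 M reads by 2.29 times for Elane and Ctsg, 1.65 times for Camp, 2.81 times for Ngp and 2.36 times for Mmp8. In each group the deeper library was the higher for all 5 members that whole reads settled, as for 50.6% of the 356 settled genes that averaged at least 10 RPKM. Together these 5 took 0.223% and 1.21% of the reads of TdTomato-positive libraries, against 0.818% and 2.06% of those of TdTomato-negative libraries.

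Levels were compared between members per kilobase of exon, with exon lengths from GENCODE M21. In TdTomato-positive cells Ngp was the highest, with a geometric mean of 2574 RPKM per exon length, followed by Camp at 1915, Ltf at 397, Elane at 369 and Lcn2 at 311. Mmp8 at 31.3 and Mmp9 at 26.8 came last there. In TdTomato-negative cells the order was Ngp at 7605, Camp at 2833, Ltf at 1424 and Lcn2 at 853, and then Mmp8 at 416, just above Elane at 409. Mmp8 was thus of rank 9 in TdTomato-positive cells and of rank 5 in TdTomato-negative cells. Neighbours in the order overlapped in their library ranges in 9 of 9 pairs in TdTomato-positive cells and in 8 of 9 in TdTomato-negative cells, where Ngp stood apart from Camp.

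Other genes linked to each granule class were followed from lists chosen by name, in which not every gene encodes a granule protein. Of 14 other primary granule and promyelocyte genes with reads, 10 averaged lower and 4 higher in TdTomato-positive cells (median log2 fold -0.45), and none had a deposited p under 0.05. Srgn, the proteoglycan that holds granule proteins, had 2.16 and 24.8 RPKM in TdTomato-positive libraries, against either 13.6 and 25.5 or 5.78 and 59.6 RPKM in TdTomato-negative libraries. Cd63, an azurophil membrane tetraspanin that many other cells make, had a log2 fold of 1.74 (p = 0.261 in the authors' deposited table). Lyz2, a lysozyme, and Nkg7 had log2 folds of -0.86 and -0.73.

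Of 18 other secondary granule genes with reads, 16 were lower on average, with a median log2 fold of -1.51. Of all genes, 0.296% were lower with a deposited p under 0.05, and 2 of this list were. These were Itgam, the alpha chain of the Mac-1 integrin (-2.99, p = 0.0334), and Olfm4, olfactomedin 4 (-2.87, p = 0.0408), both in the authors' deposited table. Olfm4 had 0.114 and 0.521 RPKM in TdTomato-positive libraries, against 1.57 and 4.16 RPKM in TdTomato-negative libraries. Hp, haptoglobin, had 19.1 and 96.0 RPKM in TdTomato-positive libraries, against 95.3 and 163 RPKM in TdTomato-negative libraries. Chil3, a chitinase-like protein, and Anxa1, annexin A1, had log2 folds of -1.54 and -0.64. For 6 of the 18, both TdTomato-negative libraries lay above both TdTomato-positive ones, against 9.91% of genes of at least 1 RPKM in 2 libraries.

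Of 10 other late granule genes, 9 were lower on average, with a median log2 fold of -1.28. With a deposited p under 0.05, 1 of them was lower, against 0.296% of all genes. Adam8, a membrane metalloprotease of the late granules, had 1.24 and 8.95 RPKM in TdTomato-positive libraries, against either 21.6 and 51.0 or 11.6 and 94.4 RPKM in TdTomato-negative libraries, and was the only gene of this list with a deposited p under 0.05 (log2 fold -3.26, p = 0.0231 in the authors' deposited table). Pglyrp1, a peptidoglycan recognition protein, had a log2 fold of -1.29 (p = 0.359 in the authors' deposited table). Padi4, which citrullinates histones, and Tyrobp, a signalling adaptor, had log2 folds of -2.54 and -0.79. No gene of this list had a log2 fold as low as those of Mmp8 and Mmp9.

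Of 12 secretory vesicle and receptor genes, which neutrophils make last, 10 were lower on average, with a median log2 fold of -1.29. With a deposited p under 0.05, 2 of them were lower, against 0.296% of all genes. Cxcr2, the chemokine receptor of mature neutrophils, had 1.60 and 2.29 RPKM in TdTomato-positive libraries, against either 14.6 and 30.0 or 6.80 and 64.0 RPKM in TdTomato-negative libraries (log2 fold -3.39, p = 0.0183 in the authors' deposited table). Fpr1, a receptor for bacterial formyl peptides, had 0.695 and 1.84 RPKM in TdTomato-positive libraries, against 7.47 and 13.2 RPKM in TdTomato-negative libraries (log2 fold -3.01, p = 0.0347 in the authors' deposited table).

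Of all genes, 0.296% were lower with a deposited p under 0.05, and of genes that averaged at least 10 RPKM 1.54%. Of the 12 neutrophil markers, 4 had such a p, all lower in TdTomato-positive cells. Trem1, an activating receptor of mature cells, had a log2 fold of -3.60 (p = 0.0117 in the authors' deposited table). S100a8 and S100a9, the most abundant of them, had log2 folds of -1.18 and -1.12 (p = 0.460 and 0.469 in the authors' deposited table). Retnlg had one of -2.09. The spread within the marker list, with folds near -1.2 for these and near -3.6 for Trem1, was thus as wide as that between the secondary and the late members.

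**Figure D4:**
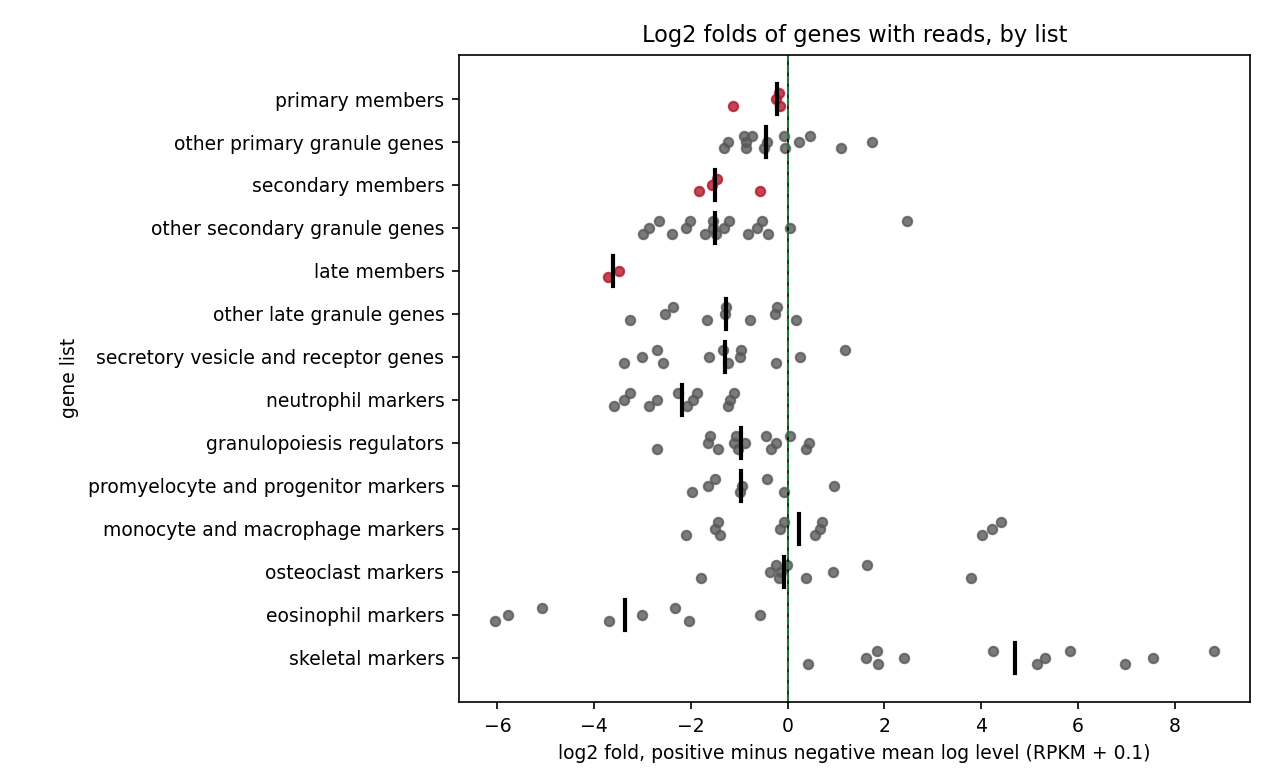
Log2 fold of every gene with reads in each list (points), with the list's median as a black bar, the members in red and the median of all genes as a dashed line. The median lies at -0.21, -1.51 and -3.60 for the primary, secondary and late members, and at 4.70 for the skeletal markers. It lies at -0.45, -1.51 and -1.28 for the other primary, secondary and late granule genes, and at -1.29 for the secretory vesicle and receptor genes.

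Among the 14 regulators of granulopoiesis, 11 were lower on average, with a median log2 fold of -0.95, and none had a deposited p under 0.05. Cebpe, which encodes C/EBP epsilon and is required for secondary granule genes, had 7.39 and 27.6 RPKM in TdTomato-positive libraries, against 30.5 and 29.7 RPKM in TdTomato-negative libraries. The TdTomato-positive libraries lay below both TdTomato-negative ones, by little in the library of 41.6 M reads, and the log2 fold was -1.07 (p = 0.459 in the authors' deposited table). Cebpd, Cebpb and Myb had log2 folds of 0.37, -0.35 and -1.65. Among 8 promyelocyte and progenitor markers 7 were lower on average. Cd34 had a log2 fold of 0.95, and the proliferation genes Mki67 and Top2a had -1.51 and -1.98. Ms4a3, a marker of granulocyte and monocyte progenitors, had 1.26 and 13.2 RPKM in TdTomato-positive libraries, against 2.83 and 6.73 RPKM in TdTomato-negative libraries, the same order of libraries as Elane and Ctsg.

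Markers of other blood lineages differed in their own ways. Eosinophil markers had a median log2 fold of -3.36, with all 8 lower and 5 of them at a deposited p under 0.05 (0.296% of all genes were called lower so). Their summed level was 4.83 to 13.3 and 15.8 to 26.9 RPKM in TdTomato-positive libraries, against 204 to 298 and 221 to 632 RPKM in TdTomato-negative libraries, and Epx, Siglecf and Il5ra were at 0 in the TdTomato-positive library of 32.0 M reads. Prg2, the eosinophil major basic protein, had 0.405 and 7.57 RPKM in TdTomato-positive libraries, against 164 and 103 RPKM in TdTomato-negative libraries. The ribonuclease genes Ear2 and Ear6, closely related copies whose reads may be shared, had log2 folds of -3.01 and -5.07. Of 12 monocyte and macrophage markers, 6 were lower and 6 higher on average. The 3 with a deposited p under 0.05 were the complement genes C1qa, C1qb and C1qc, all higher in TdTomato-positive cells (0.598% of all genes were called so). C1qa had 43.8 and 87.6 RPKM in TdTomato-positive libraries, against 24.6 and 0.248 RPKM in TdTomato-negative libraries. C1qb had 34.4 and 73.0 RPKM, against 22.1 and 0.223 RPKM. For both, the TdTomato-negative library of 74.0 M reads lay far below that of 17.0 M reads. The summed level of the 12 markers was 157 to 378 and 282 to 569 RPKM in TdTomato-positive libraries, against 181 to 209 and 320 to 443 RPKM in TdTomato-negative libraries, with none of the 12 at 0. Ly6c2 and Cd68 had log2 folds of -1.44 and 0.56. All 10 B cell markers were lower on average, against 47.9% of all genes with reads, with a median log2 fold of -1.38. Cd79a and Cd79b were at -0.98, Ighm at -1.82 and Jchain at -4.64. All 10 erythroid markers were lower on average too, with a median of -1.32. Hbb-bs was at -1.10, the near-identical Hba-a1 and Hba-a2 at -1.06 and -1.07, Car1 at -1.85 and Slc4a1 at -2.89. The secondary members had a median of -1.51. The part of these cells in the members' levels was not tested.

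Proteins that act on the members' products gave no common direction. Of 15 inhibitors and activators with reads, 7 were lower and 8 higher on average, with a median log2 fold of 0.18. Among the 13 with at least 10 reads in 2 libraries the median was -0.40, so its sign turned with this filter. Timp1, an inhibitor of Mmp8 and Mmp9 made by stromal cells, had either 31.4 and 13.7 or 10.5 and 41.0 RPKM in TdTomato-positive libraries, against 3.51 and 0.0118 RPKM in TdTomato-negative libraries (log2 fold 5.04, p = 0.000574, FDR = 0.976 in the authors' deposited table). Slc22a17, a receptor for Lcn2, had 7.82 and 2.59 RPKM in TdTomato-positive libraries, against 1.25 and 0.175 RPKM in TdTomato-negative libraries (log2 fold 2.92, p = 0.0451 in the authors' deposited table). Serpinb1a and Wfdc21 had log2 folds of -0.91 and -1.08, Timp3 one of 2.69, and the receptors Lrp1 and Fpr2 1.52 and -1.62.

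The gene whose profile over the 4 libraries lay closest to the mean profile of the 5 settled members was Igsf6, an immunoglobulin superfamily gene, with 1.30 and 14.6 RPKM in TdTomato-positive libraries and 9.07 and 21.0 RPKM in TdTomato-negative libraries. Its centred log2(RPKM + 1) values differed from that mean by 0.25 in sum, among 356 genes with settled values that averaged at least 10 RPKM. Ltb4r1, Rrm2, G0s2, Glrx, AI662270, Cd52, Cd14 and Cenpa followed, with sums up to 0.88. These are a description over 4 libraries that differ in depth, and the genes share the libraries.

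Of the genes within 20 kb of the members, Mcpt8, a basophil protease gene 14.7 kb from Ctsg, was the only one with a deposited p under 0.05 (log2 fold -3.08, p = 0.0334 in the authors' deposited table). Klhl18, 2.91 kb from Ngp, had a log2 fold of -0.09, and Mmp27, 2.91 kb from Mmp8, one of -0.19, on 0 and 30 reads in TdTomato-positive libraries and 7 and 45 in TdTomato-negative libraries.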

How the data were processed

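Low-input RNA libraries of 4 sorted samples gave paired reads of 75 nucleotides. The submitters' processing notes name STAR, Partek and the mm10 build, with no version. The deposited table holds, per the file headers, group means of a normalized signal and its highest value over libraries as a score. It also holds the group difference on the natural log scale, the ratio and signed fold change of group means, and the p-value and FDR of the authors' lognormal model with shrinkage. It has no column per library.

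From these columns the 4 library values of each gene were solved (1 solution for each of 47643 genes). They matched RPKM plus 0.1, divided by depth and span again, a scale inferred here and stated in no header. Whole reads decided which value belonged to which library for 66.2% of 17166 genes with at least 10 reads in 2 libraries. For the rest, both readings are printed in pairs, and fits took the reading whose libraries differ less. Log2 folds are TdTomato-positive minus TdTomato-negative. The authors' deposited p and FDR are the main test. They come from a model with shrinkage and need not follow the spread of a gene's own libraries. Slc4a1 (log2 fold -2.89, groups overlapping) and Olfm4 (log2 fold -2.87, groups apart) had p = 0.0421 and 0.0408 in the authors' deposited table. The second test is limma 3.58.1 (R 4.3.3, trend, log2(RPKM + 1), genes of at least 1 RPKM in 2 libraries), tested on simulated data. Simulated libraries of a group differed far less than the TdTomato-positive libraries did for the members. The simulation therefore does not show how limma behaves at that spread.

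The members and lists were chosen with earlier results of these data known. The text names all members, of each list the genes past the FDR, the 3 highest in level and the 2 lowest in p, the 10 genes most like the members, and neighbours within 20 kb, of which only some are printed; a few genes the rule selects are not reported here. Postn, C1qc, Calcr and Dcstamp were named after their values were seen.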

Additional observations from a re-analysis of the deposited data

How the results depend on the processing

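No member passed an adjusted p of 0.05 in the deposited test or under the scale, filter, pseudocount, size factor and other-reading alternatives of limma. The labels number the collections but no value carries the number, so each pairing was tried as a replicate block on settled genes: with the library of 32.0 M reads beside that of 17.0 M reads 1 member passed (Mmp8, adjusted p = 0.047 in limma, with 1.38% of 3268 genes called lower), and with the other pairing 0 did. Leaving out 1 library at a time, both readings included, gave 0 to 1 members past the threshold (Mmp9 without the TdTomato-negative library of 17.0 M reads, adjusted p = 0.0273 in limma under the reading not used in the fits, with 1.21% of 7100 genes called lower). It gave 5 to 10 members with a lower mean. The stage medians ran from -2.10 to 1.60 (primary), from -2.37 to -0.64 (secondary) and from -4.43 to -2.42 (late). Single members whose sign turned ran from -3.03 to 0.83 (Mpo), -2.17 to 1.89 (Elane), -2.03 to 1.68 (Prtn3), -1.78 to 1.53 (Ctsg) and -1.97 to 0.84 (Camp).

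With a pseudocount of 10 the primary median was 0.0032 and the late one -2.47, with Prtn3 at 0.15 and Ctsg at 0.077, which shrinks low levels by construction. Ratios of deposited group means gave a primary median of 0.44, with Elane at 0.70, Prtn3 at 0.46 and Ctsg at 0.42; these means weight shallow libraries more. Relative to Ly6g and Csf3r the secondary median was 1.02 and the late one -1.10, relative to Itgb2 and Ptprc 0.73 and -1.39, and relative to Mmp8, chosen after seeing the data, 3.51 (primary), 2.22 (secondary) and 0.22 (late). In the 4 other granule lists 0 genes passed the FDR and 5 were lower with a deposited p under 0.05, against 0.296% of all genes. Of 165 settings of single members, 141 kept the direction and the side of the threshold, and in 22 the sign turned. These settings are not independent. The other reading leaves the values of settled members unchanged, and a replicate block leaves their folds unchanged. Each member had at least 502 reads in each library, and library assignment was unsettled for 5 of the 10.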
